A study of Rattus norvegicus with 6 samples.

Results

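Plasma cells of the rat pancreas were taken as barcodes with transcripts of at least 3 of the 5 markers Jchain, Mzb1, Tnfrsf17, Derl3 and Prdm1, without a transcript of Ms4a1 or of Cd3e, Cd3d and Cd3g, and with less than 10% of their UMIs (unique molecular identifiers, each a counted transcript) from 7 digestive enzyme genes. The rule was applied to barcodes with at least 200 genes and at most 25% mitochondrial UMIs. It found 219 plasma cells among 75981 barcodes kept of 78024 deposited, or 0.288%. The cells were chosen on their own transcripts, so the marker genes, Ms4a1, the Cd3 genes and the enzymes are described here and not tested. A gene that is expressed together with the markers is not free of the rule either, so the comparisons with other cells describe the profile of the cells that the markers picked.

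The study was made with male Wistar rats, and single-cell 3' libraries were prepared from the pancreas of 6 rats. The 2 young rats were 2 months old and on a normal diet. The 2 old rats were kept on the normal diet for 18 months, to an age of 20 months, and the 2 HFHF-old rats received a high-fat, high-fructose diet over the same 18 months. All groups share the strain, the sex and the preparation, in which collagenase P was injected through the bile duct and cells were collected at a density interface, so a share of cells describes that suspension and not the whole organ. Each library is 1 rat, and it held 7479 to 17504 kept barcodes with a median of 2547 to 9824 UMIs.

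Plasma cells are the antibody-secreting end of the B cell lineage. When a B cell differentiates, the transcription factor Prdm1 shuts off the B cell programme and Xbp1 expands the endoplasmic reticulum, in which immunoglobulin chains are folded, joined and glycosylated. Long-lived plasma cells rely on survival signals through Tnfrsf17, the receptor known as BCMA, and those of mucosal and glandular tissue carry chemokine receptors such as Ccr9 and Ccr10 and secrete antibody joined by the J chain that Jchain encodes.

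Plasma cells were found mainly in the old rats on the normal diet. Old replicate 1 had 52 of 7479 barcodes, a share of 0.695% (95% exact binomial interval 0.520 to 0.911%), and old replicate 2 had 134 of 16421, a share of 0.816% (0.684 to 0.966%). HFHF-old replicate 1 had 13 plasma cells (0.104%, 0.0553 to 0.178%) and HFHF-old replicate 2 had 9 (0.0767%, 0.0351 to 0.146%). Young replicate 1 had 11 (0.0628%, 0.0314 to 0.112%), and young replicate 2 had 0 of 10328, which allows a share of up to 0.0290% by a limit of 3 counts and of up to 0.0357% by the exact binomial interval. Both old rats lay above the other 4 rats, and the intervals of the 2 sets did not overlap, and the old rats supplied 186 of the 219 cells (84.9%). These intervals cover counting error only.

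The log2 ratio of the mean shares was 4.59 for old against young rats, -3.07 for HFHF-old against old rats and 1.52 for HFHF-old against young rats. The young mean includes the 0 of young replicate 2, and without that rat the ratios to the young group were 3.59 and 0.52. With 2 rats in each group the exact permutation test cannot go below p = 0.333, which each of the 3 comparisons had. Over the 3 groups together the exact permutation test gave p = 0.0667, again the smallest value that 6 rats in 3 groups allow, so none of the group differences could pass a threshold of 0.05 by design. Fewer plasma cells, more of other cells in the suspension and a different recovery of plasma cells cannot be told apart in a share.

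Depth differed between the libraries. Old replicate 2 had the highest share with the lowest median depth of all kept barcodes, 2547 UMIs, and HFHF-old replicate 1 had the highest median depth, 9824. When every barcode was thinned to 1000 UMIs and shallower barcodes were left out, 6 and 0 plasma cells were left in the young rats, 28 and 72 in the old rats and 5 and 3 in the HFHF-old rats. The shares were 0.0366 and 0% in the young rats, 0.400 and 0.584% in the old rats and 0.0449 and 0.0262% in the HFHF-old rats, in the order of the replicate numbers. Both old rats remained above the other 4 at this equal depth, while HFHF-old replicate 2 then lay below young replicate 1, and the exact permutation test of HFHF-old against young gave p = 0.667.

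**Figure D1:**
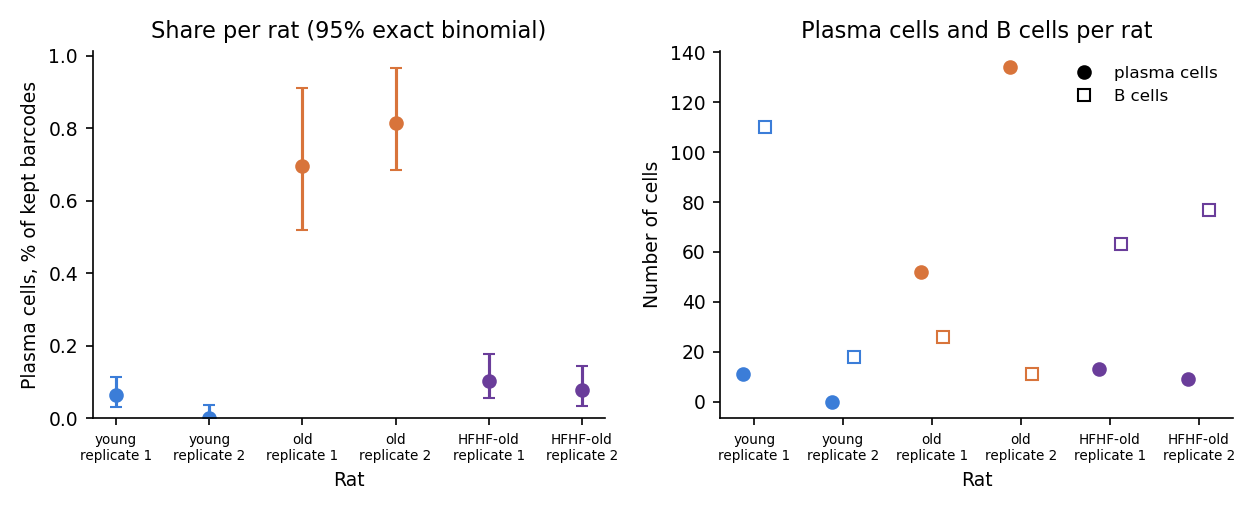
Plasma cells per rat. Left, the share of kept barcodes in percent with its 95% exact binomial interval, where the old rats lie at 0.695 and 0.816% and the other 4 at 0.104% or less. Right, the number of plasma cells (filled circles) and of B cells (open squares) in each rat, where plasma cells outnumber B cells only in the 2 old rats.

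B cells were defined by Ms4a1 with at least 1 further B cell marker, and fewer than 2 plasma cell markers, with the same limits on Cd3 and enzyme genes. They did not follow plasma cells across rats. Young replicates 1 and 2 had 110 and 18 B cells, old replicates 1 and 2 had 26 and 11, and HFHF-old replicates 1 and 2 had 63 and 77. The ratio of plasma cells to B cells was therefore 0.1 and 0 in the young rats, 2.00 and 12.2 in the old rats, and 0.206 and 0.117 in the HFHF-old rats. With 0.5 added to both numbers, the mean log2 ratio of the old rats was 6.5 above that of the young rats, and that of the HFHF-old rats was lower than that of the old rats by a difference of -4.90. Leaving out old replicate 1 moved these differences to 7.78 and -6.18, and leaving out old replicate 2 moved them to 5.22 and -3.62. Each comparison had p = 0.333 in the exact permutation test, the smallest possible.

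The marker levels follow from the rule and are given as a description. Jchain was found in 218 of the 219 cells and Mzb1, a chaperone of antibody assembly, in 217. Derl3 is listed among the genes but had no UMI in any barcode of the 6 libraries, so the rule worked as 3 of 4 markers. All of Jchain, Mzb1, Tnfrsf17 and Prdm1 were found in 130 cells, the first 3 of these in 54, Jchain with Mzb1 and Prdm1 in 32, and the other 2 combinations in 3 cells. Jchain reached 3516 CPM (the UMIs of a gene per 1000000 UMIs in the summed cells of a rat) in young replicate 1, 4644 and 3459 in the old rats, and 3705 and 2944 in the HFHF-old rats. Tnfrsf17 was at 368, 357, 252, 208 and 229 CPM in the same 5 rats. Prdm1 was the least particular marker: it was found in 56.1% of all kept barcodes of HFHF-old replicate 2 and in 7.73 to 17.1% in the other rats. Jchain was found in 4.05 and 3.43% of all kept barcodes of old replicates 1 and 2 and in 0.513 to 0.886% in the other rats. Its part in the number of cells that passed the rule was not tested.

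Beyond the rule, 166 cells held Pou2af1, the coactivator of octamer promoters, 143 held Xbp1, 135 held Irf4, the factor that acts with Prdm1 in plasma cells, and 81 held Sdc1, the surface proteoglycan known as CD138. Of the 219 cells, 28 held none of Xbp1, Irf4 and Pou2af1, 0 and 0 in the young, 9 and 18 in the old and 1 and 0 in the HFHF-old rats. These cells were shallow, with a median of 2977 UMIs against 13701 over all plasma cells. Of the 28, 27 had the minimum of 3 markers, 14 had hormone genes at 1% of UMIs or more and 11 held 3 or more macrophage markers. Ptprc, the pan-leukocyte antigen CD45, was found in 135 plasma cells.

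At the edge of the rule, the 89 cells with exactly 3 markers had a median of 47.9% of UMIs in the 2 dominant loci described below, the 130 cells with 4 markers had 62.3%, and the 193 barcodes that passed all else with 2 markers had 5.32%. The last value rests on old replicate 2, whose 108 such barcodes had a median of 14.7%, while the median in each of the other 5 rats was 0.00319 to 0.152%. The bar on Ms4a1 and the Cd3 genes left out 147 barcodes with 3 or more markers, whose median in these loci was 52.6%. Of these, 86 held an Ms4a1 UMI, which in 63 was a single UMI, and 86 held a Cd3 UMI, which in 26 was a single UMI. With both limits lifted the numbers became 27 and 1 in the young, 84 and 220 in the old and 19 and 15 in the HFHF-old rats.

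The transcriptome of a plasma cell was dominated by AABR07060872.1 and AABR07065625.1, loci that the annotation lists by clone name only, with no gene name. Together they took a median of 58.5% of the UMIs of a plasma cell, with a range from 0.181 to 83.8%, and at least 50% in 141 of the 219 cells. The median was 30.2% in young replicate 1, 57.9 and 60.9% in the old rats, and 17.4 and 60.1% in HFHF-old replicates 1 and 2. Young replicate 1 and HFHF-old replicate 1 were thus low, and HFHF-old replicate 2 lay with the old rats, so the HFHF-old rats did not fall together. The 2 low rats also had the largest shares of cells with 3 or more macrophage markers, given below. Over all rats such cells had a median of 43.4% in these loci and the other plasma cells 61.1%. The part of such cells in the difference between rats was not tested. In summed B cells the same loci took 0.511 to 0.795% of UMIs, and in summed acinar cells 0.001 to 0.113%.

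Although they are 0.816% or less of barcodes, plasma cells held 25.9% of all UMIs of these loci in young replicate 1, 48.0 and 58.1% in the old rats, and 57.2 and 69.0% in the HFHF-old rats. At least 1 UMI of AABR07060872.1 was found in 88.4% of all kept barcodes of old replicate 1 and 33.8% of old replicate 2, but in 9.17% of HFHF-old replicate 2. Low counts of it were thus spread over other cells, and only its level marks plasma cells.

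**Figure D2:**
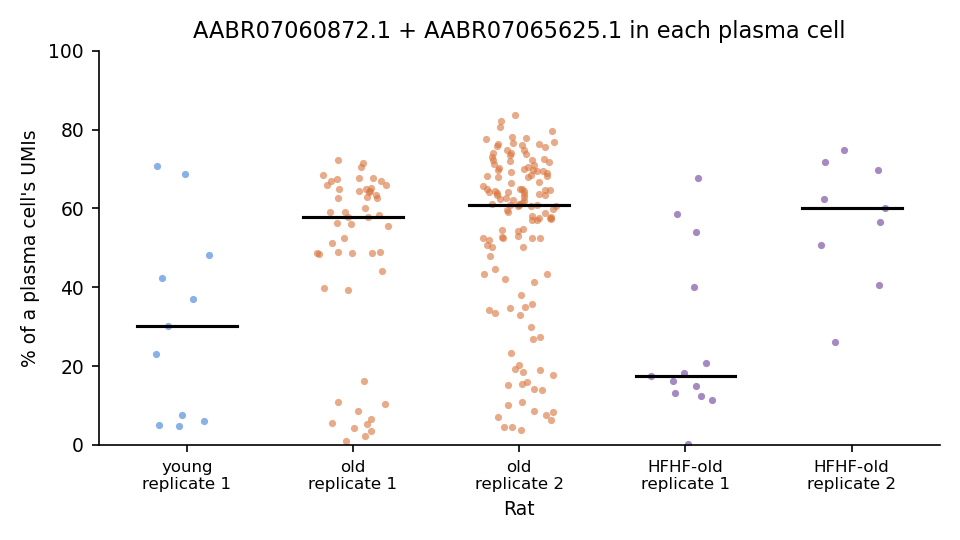
Share of each plasma cell's UMIs, in percent, taken by AABR07060872.1 and AABR07065625.1 together, by rat. Each point is 1 cell and the line is the median of a rat, at 30.2% in young replicate 1, 57.9 and 60.9% in the old rats, and 17.4 and 60.1% in the HFHF-old rats.

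AABR07060872.1 and AABR07034739.1 were not high in the same cells. AABR07060872.1 took at least 10% of UMIs in 182 plasma cells and AABR07034739.1, another clone-named locus, in 11, and no cell had both at that level. The 11 cells were 2 and 4 of the old rats and 5 of the 13 in HFHF-old replicate 1, and none came from young replicate 1 or HFHF-old replicate 2. In the summed plasma cells AABR07034739.1 was at 7019 CPM in young replicate 1, 15622 and 20709 CPM in the old rats, and 96473 and 5629 CPM in the HFHF-old rats. The low level of AABR07060872.1 in HFHF-old replicate 1, 189212 CPM against 423697 CPM in HFHF-old replicate 2, went with the high level of AABR07034739.1 there. Young replicate 1 was also low in AABR07060872.1, at 262192 CPM, but without a high level of AABR07034739.1.

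Igh-6 was set against AABR07065625.1 in the same way, with few cells. AABR07065625.1 took at least 10% of UMIs in 148 plasma cells. Igh-6, the immunoglobulin heavy chain mu gene, took at least 1% in 10 cells and at least 10% in 2, and in none of the 10 did AABR07065625.1 reach 10%, which is a description of few cells. Of the 10 cells, 8 came from old replicate 2, and Igh-6 was at 5893 CPM there, at 202 CPM in young replicate 1, 39.8 in old replicate 1, 29.2 in HFHF-old replicate 1 and 2318 in HFHF-old replicate 2. Ighg1, a gamma heavy chain gene, was at 19.1 CPM in HFHF-old replicate 2, in 2 cells, and had no UMI in the plasma cells of the other rats. Igll1, the surrogate light chain gene of early B cells, had no UMI in any plasma cell. AC134224.3, the fourth gene by CPM, took 0.712 to 1.68% of UMIs in plasma cells and 1.02 to 1.75% in B cells, so its share of UMIs overlapped between the classes. In the fit described below, which scales to the bulk of genes, AC134224.3 was higher in plasma cells than in B cells by 1.15 ± 0.20 on the log2 scale, and that difference was -0.059 when total UMIs set the scale.

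**Figure D3:**
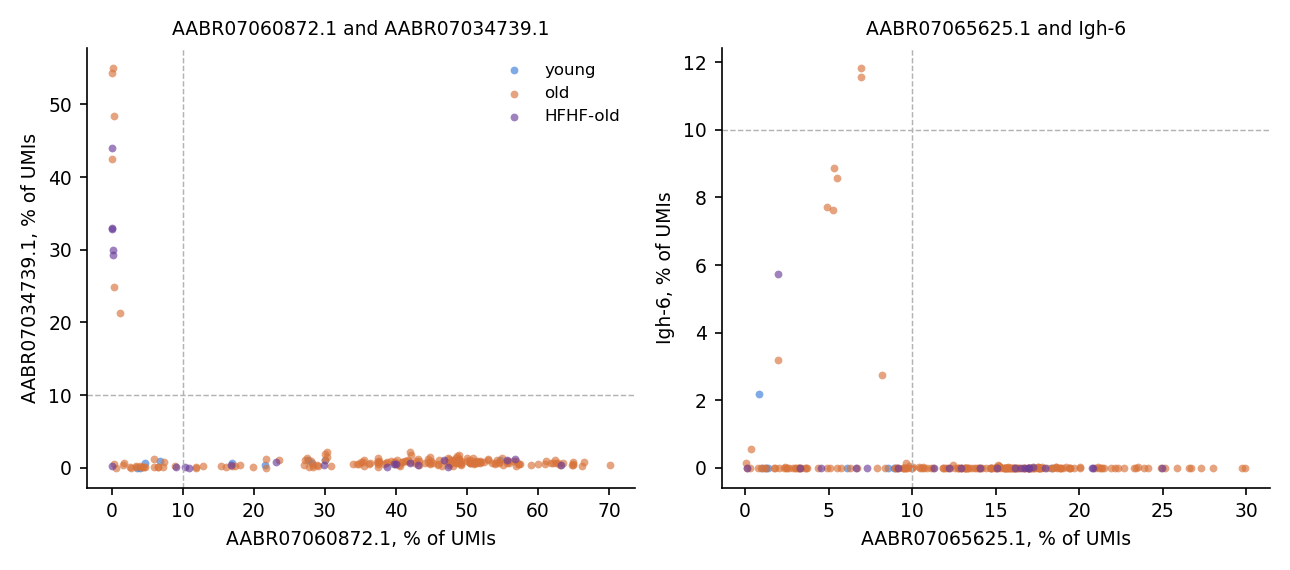
Percent of a plasma cell's UMIs in AABR07060872.1 against AABR07034739.1 (left) and in AABR07065625.1 against Igh-6 (right); points are cells coloured by group and dashed lines stand at 10%. No cell lies above 10% on both axes in either plot.

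A group of 21 plasma cells had under 10% of UMIs in the 2 dominant loci. Of these, 16 had the minimum of 3 markers. Among the 21, 9 were marked as likely doublets within their library, as 20 plasma cells were in all. Another count, of cells with 3 or more of 10 macrophage markers, was also 9, and the other 198 cells had 11 and 42 of these 2 kinds. They were shallower, with a median of 5487 UMIs against 14117. None of them had AABR07034739.1 or Igh-6 at 10%. Counted over cells with at least 10% in the dominant loci only, plasma cells numbered 7 and 0 in the young, 44 and 126 in the old and 12 and 9 in the HFHF-old rats.

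Transcripts of other cell types were present in some plasma cells, and they differed between rats. All 10 macrophage markers were found in the plasma cells of 4 rats, with a summed level of 2926 CPM in young replicate 1, 281 and 411 CPM in the old rats and 3422 CPM in HFHF-old replicate 1, while all 10 were at 0 in HFHF-old replicate 2. At least 3 of them were found in 5 of 11 cells of young replicate 1, 15 of 52 and 21 of 134 of the old rats, and 10 of 13 and 0 of 9 of the HFHF-old rats. B cells of the same rats held 771, 1421, 1260, 3563 and 21.5 CPM of these genes. Without the 51 plasma cells that held 3 or more, 6 and 0 were left in the young, 37 and 113 in the old and 3 and 9 in the HFHF-old rats, and both old rats stayed above the other 4.

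Hormone genes took at least 1% of UMIs in 25 plasma cells, 20 of them in old replicate 2, where the pancreatic polypeptide gene Ppy was at 34762 CPM against 0 to 113 CPM in the other rats and took at least 5% of UMIs in 10 cells. The B cells of that rat also held Ppy, at 5577 CPM. Siglech, a marker of plasmacytoid dendritic cells, had 7 UMIs in 3 cells of old replicate 2 and 0 in the other plasma cells, and Tlr9, another, was found in old replicate 2 only. Of the 10 genes listed for these cells, several of which B lineage cells also express, at least 3 were found in 7 of 11 plasma cells of young replicate 1, 25 of 52 and 38 of 134 of the old rats and 9 of 13 and 8 of 9 of the HFHF-old rats. Their summed level was 646, 385, 315, 1075 and 583 CPM in plasma cells and 552, 759, 556, 762 and 860 CPM in B cells of these rats. In the comparison with B cells described below, 12.7% of all genes tested were higher and 9.34% lower. Among the 8 tested of this list, Ccr9, Runx2 (4.18), Bst2 (2.18) and Clec10a (1.21) were higher (50%) and Spib (-3.87) was lower (12.5%). The part of these genes in the results was not tested. With plasma and B cells limited to those with hormone genes under 1% of UMIs, at 5 cells a rat, the comparison with B cells described below had 838 genes higher and 615 lower.

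Of the 219 plasma cells, 20 were marked as likely doublets, 4 of them among the 11 of young replicate 1, and 7 shared their barcode sequence with a barcode of another library, as 1237 of all kept barcodes did. Without the marked cells the young rats had 7 and 0, the old rats 52 and 122 and the HFHF-old rats 11 and 7.

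Against B cells of the same rat, plasma cells had the secretory pathway higher and the B cell programme lower. The 4 rats with at least 10 cells of each class were young replicate 1, both old rats and HFHF-old replicate 1. For each rat the UMIs of a class were added up, and the sums were compared with edgeR's quasi-likelihood test with the rat as a covariate. Calls needed an adjusted p (Benjamini-Hochberg) under 0.05 together with a fold over 1.5. Of 5672 genes tested, 722 were higher in plasma cells (12.7%) and 530 lower (9.34%), 22.1% in all. The fold is relative to the bulk of genes (TMM). Scaling by total UMIs, of which the 2 dominant loci hold a large share in plasma cells, put the median log2 fold change at -1.18 in place of -0.01 and moved the split to 228 higher and 2897 lower, or 7.30% higher among those called in place of 57.7%.

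Genes of endoplasmic reticulum (ER) folding were mostly higher. Of 30 chaperones, disulfide isomerases and their helpers, 23 were higher and 0 lower, with a median log2 fold change of 2.59 against -0.01 over all genes tested. Txndc5, a disulfide isomerase, was at 1195 CPM in young replicate 1, 1426 and 874 CPM in the old rats and 1150 CPM in HFHF-old replicate 1, against 39.3, 28.5, 18.5 and 39.4 CPM in B cells. The lowest plasma cell value lay far above the highest B cell value, with a log2 fold change of 6.13 ± 0.33 (SE, n = 4 rats). Pdia4, another isomerase, differed by 5.43 ± 0.33, the secreted ER stress protein gene Creld2 by 5.17 ± 0.37, and Sdf2l1, a partner of ER chaperones, by 5.12 ± 0.36. Hspa5, the ER chaperone BiP, was at 459, 626, 754 and 1129 CPM in plasma cells and 142, 143, 130 and 252 CPM in B cells, 3.23 ± 0.30 on the log2 scale.

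The promoters of some of these genes carry the ER stress response element, the sequence through which Xbp1 and Atf6 are known to act. The letters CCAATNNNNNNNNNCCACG were searched on both strands in the 250 bases before each RefSeq start (assembly GRCr8). They were found in 21 of 27457 promoters, or 0.0765%, and in 7 of 26 ER folding genes with a promoter in the RefSeq set, or 26.9%. Xbp1 was the only match among 23 matched genes of the unfolded protein response and ER-associated degradation, and no match was found among 21 genes of ER translocation. Nor was it found among 24 genes of N-glycosylation and 25 of ER to Golgi transport. These lists without a match were mostly higher against B cells too, with 16 of 21, 15 of 21 and 16 of 23 tested genes in the order named. All sites but that of Ero1b belong to genes that were higher in plasma cells, but so were 23 of 30 ER folding genes. Whether the element goes with the rise was not tested. The 9 sites follow, with the letters of the element and its spacer in capitals.
Hspa5 (chr3:38452968-38452996, + strand): gttcaCCAATCGGAGGCCTCCACGacggg
Hsp90b1 (chr7:23012446-23012474, - strand): caaacCCAATCGAAAGGAGCCACGcttcg
Hsp90b1 (chr7:23012342-23012370, + strand): acccaCCAATCGTGCCTCACCACGcactc
Creld2 (chr7:121789234-121789262, - strand): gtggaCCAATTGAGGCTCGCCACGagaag
Canx (chr10:35158064-35158092, - strand): cttgtCCAATCATCACGCTCCACGaagaa
Xbp1 (chr14:84604553-84604581, + strand): acaggCCAATCGCAGACGGCCACGaccct
Dnajc3 (chr15:102432529-102432557, + strand): caaagCCAATCAGCGCCAACCACGaccca
Ero1b (chr17:92941453-92941481, - strand): ggcggCCAATGAGGCGGGACCACGagggc
Calr (chr19:40213130-40213158, - strand): ctgggCCAATCAGGGTCGACCACGcgttg

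In these genes the log2 fold change in plasma cells was 5.29 for Xbp1, 5.17 for Creld2, 4.26 for Hsp90b1, 3.79 for Dnajc3, 3.23 for Hspa5, 2.76 for Calr and 1.19 for Canx. Ero1b, an ER oxidase, had -0.86 and was not called. A match describes the letters of a promoter and was not related to binding.

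The unfolded protein response and ER-associated degradation had 18 of 26 genes higher and 0 lower, with a median of 2.29. Ern1, which encodes the ER stress sensor IRE1 that splices Xbp1 mRNA, was at 493, 694, 506 and 1521 CPM in plasma cells and at 19.6, 5.71, 37.1 and 23.6 CPM in B cells, a log2 fold change of 6.31 ± 0.39. Xbp1 itself was at 181, 128, 94.8 and 150 CPM against 2.46, 17.1, 18.5 and 7.88 CPM, a change of 5.29 ± 0.44. Neither gene overlapped between the classes. Asns, a target of the amino acid arm of the response, was higher by 3.94 ± 0.54. Chac1, another, was called higher with 114 UMIs against 3 in B cells. On the scale of the fit its ratio was 52.0, with a 95% exact counting interval from 17.3 to 256.

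ER translocation, the entry of new chains into the ER, had 16 of 21 genes higher and 0 lower, with a median of 2.51. Ssr4, a subunit of the translocon-associated complex, was at 1716, 2196, 2707 and 2017 CPM against 217, 183, 204 and 163 CPM, and its log2 fold change was 4.61 ± 0.30. Sec11c, of the signal peptidase, differed by 4.64 ± 0.29 and Tram2 by 5.65 ± 0.46. N-glycosylation had 15 of 21 higher and 0 lower (median 1.72), led by the oligosaccharyltransferase subunits Ddost at 3.84 and Krtcap2 at 3.12. ER to Golgi transport had 16 of 23 higher and 0 lower (median 1.5), with the cargo receptor Lman1 at 4.21 and the coat genes Sec24d at 3.19 and Sec24a at 3.11. These 5 lists kept their positive medians when total UMIs alone set the scale, at 1.44, 1.23, 1.41, 0.66 and 0.33 in the order described.

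Of 19 plasma cell genes tested, 14 were higher and 3 lower, and Txndc5, Xbp1, Creb3l2 and Selenos among the 14 also stand in the lists above. Slamf7, a surface receptor of plasma cells, was higher by 5.0 ± 0.45 and Sdc1 by 4.50 ± 0.76. Irf4 was at 76.4, 190, 117 and 125 CPM in plasma cells and 40.5, 57.1, 37.1 and 68.3 CPM in B cells, and rose by 2.35 ± 0.34. The 3 that were lower are Cd38, Fcrl5 and Cxcr4, at -2.72, -4.28 and -1.15, which textbooks list for plasma cells but which B cells also carry. Cd38, an ectoenzyme, was at 27.8, 4.30, 3.49 and 20.8 CPM in plasma cells and at 103, 234, 37.1 and 268 CPM in B cells.

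B cell identity genes were lower in 18 of 23 and higher in 0, with a median of -3.27. Pax5, the factor that holds B cell identity, was at 6.95, 1.08, 0.582 and 0 CPM in plasma cells and at 606, 468, 500 and 699 CPM in B cells. With 3 UMIs in the plasma cells of these rats, the ratio of B cells to plasma cells was 212, with a 95% exact counting interval from 72.2 to 1029. Cr2, the complement receptor, also had 3 UMIs in plasma cells, all in young replicate 1, and a ratio of 190 (64.7 to 923), and the signalling adaptor Bank1 changed by -5.50 ± 0.36. MHC class II genes were lower in 7 of 8. The class II transactivator Ciita changed by -4.49 and RT1-Da by -1.92 ± 0.25, and the exception was Cd74, the invariant chain, at -0.07.

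Receptors for survival factors and homing had 3 of 16 higher and 6 lower, or 18.75 and 37.5% against 12.7 and 9.34% of all genes tested. Ccr10 was at 34.7, 105, 73.3 and 33.3 CPM in plasma cells and at 2.46, 0, 0 and 0 CPM in B cells, and it was found in 99 of the 219 plasma cells and 4 of 305 B cells over all rats. Where a class held 1 to 3 UMIs of a called gene in these 4 rats, the ratio of the summed UMIs is given with its 95% exact counting interval, on the scale of the fit. Such ratios, here and elsewhere in the text, pool the UMIs of the rats, which differ in their numbers of cells of each class. Their intervals cover counting error only and leave out the spread between rats. The ratio was 162 (44.4 to 1346) for Ccr10, with 237 UMIs in plasma cells and 2 in B cells, and 73.9 (12.7 to 2970) for Ccr9, with 54 and 1. The fit, which compares the classes within each rat, gave 58.1-fold for Ccr10 and 62.6-fold for Ccr9. Ccr9 was found in 35 plasma cells and 3 B cells over all rats. Cxcr5, which guides B cells to follicles, had 2 UMIs in plasma cells and 230 in B cells, a ratio of B cells to plasma cells of 84.1 (23.0 to 698), and the BAFF receptor gene Tnfrsf13c differed by -3.27 ± 0.37.

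**Figure D4:**
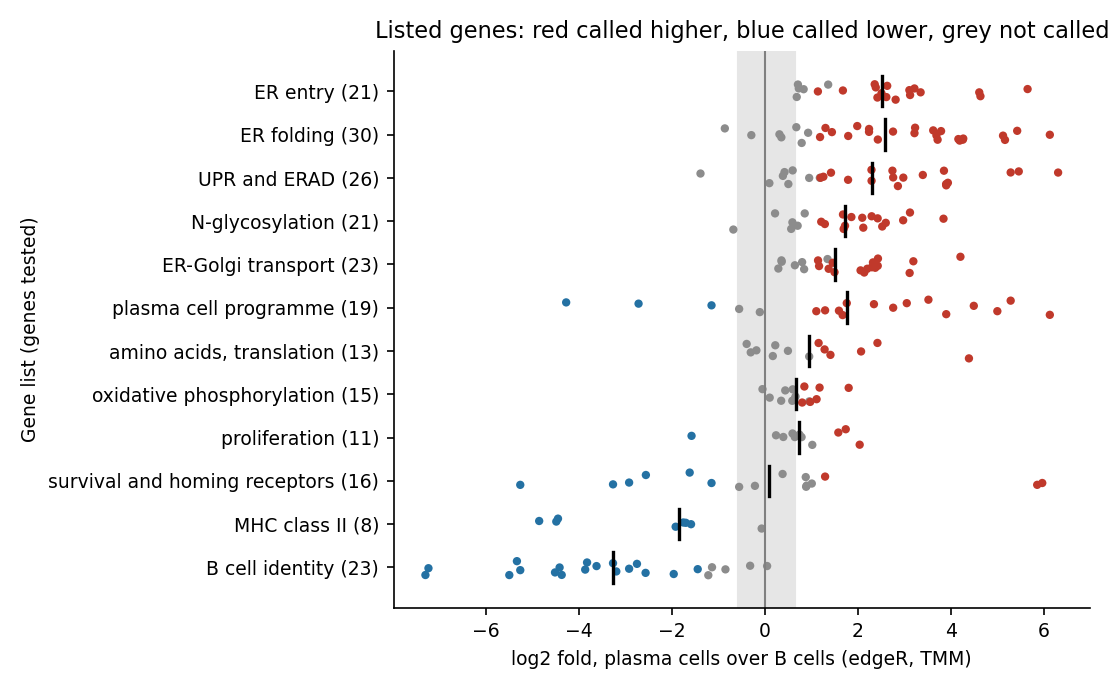
Log2 fold change of plasma cells against B cells for the genes of each list, with the median of each list. Points are genes, red where higher, blue where lower and grey where not called, the grey band spans the middle of all genes tested (quartiles -0.57 and 0.64), and the 5 lists of the secretory pathway lie mostly to the right of 0 (medians 1.5 to 2.59) while B cell identity (-3.27) and MHC class II lie to the left.

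Other processes moved less. Amino acid uptake and translation had 6 of 13 higher and 0 lower, among them the transporter chain genes Slc3a2 (4.39) and Slc7a5 (2.42). Oxidative phosphorylation had 6 of 15 higher (median 0.66), but that median was -0.50 when total UMIs set the scale. Oxidative stress genes had 4 of 17 higher (median 0.36), led by Txn1 at 2.49 and the ER peroxiredoxin Prdx4 at 2.24, with a median of -0.84 on total UMIs. Proliferation genes had 3 of 11 higher and 1 lower, or 27.3 and 9.09% against 12.7 and 9.34% of all genes. Mki67 was at 160, 26.9, 5.24 and 292 CPM in plasma cells and at 266, 5.71, 0 and 94.5 CPM in B cells. In young replicate 1 its CPM was thus lower in plasma cells, and the call was lost in 10 of the other settings tried. The other called rises, Cenpf (181 against 203 CPM) and Stmn1 (146 against 228 CPM), were also lower by CPM in plasma cells of that rat and higher in the other rats. Both Mki67 and Top2a were found in 5 plasma cells, 1 of young replicate 1, 2 of old replicate 1 and 2 of HFHF-old replicate 1. Dissociation genes, which a tissue digest can induce, were higher in 6 of 12, with Jun at 2.23 and Fos at 2.03. The part of the digest in this difference was not tested.

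Genes outside the lists were also higher. Ctla4, a receptor better known from T cells, was at 118, 64.6, 9.89 and 104 CPM in plasma cells and at 0, 5.71, 0 and 0 CPM in B cells. It was called higher, and with 119 UMIs against 1 its ratio was 163 with a counting interval from 28.7 to 6482. Enpp3, an ectoenzyme, was also called higher, with 159 UMIs against 2 and a ratio of 109 (29.6 to 906). AABR07027451.1, at 0 in B cells of all 4 rats, was at 577 CPM in young replicate 1 and at 73.2, 10.5 and 50.01 CPM in the other 3. The kinase gene Stk32b, also at 0 in B cells, was at 55.6, 13.99, 13.4 and 91.7 CPM and at least 30.1-fold higher, with 3 UMIs over the summed B cells as the floor. On the other side B3gnt5, a glycosyltransferase gene, had no UMI in plasma cells and was at least 65.8-fold lower. The cannabinoid receptor gene Cnr2 was at least 25.8-fold lower and Klhl14 at least 39.2-fold lower, with 3 UMIs over the summed plasma cells as the floor. These bounds pool the UMIs of the rats and are on the scale of the fit.

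Macrophage genes were also counted, since their transcripts differed between rats. Of 9 tested, Cd163 (1.90) and Csf1r (1.40) were called higher in plasma cells and 0 lower, against 12.7 and 9.34% of all genes. The CPM of both genes was higher in plasma cells in young replicate 1 and HFHF-old replicate 1 and lower in both old rats. The count changed with the cells and rats that entered. With at least 5 cells a rat, which adds HFHF-old replicate 2, it was again 2 of 9 higher and 0 lower, where 813 of all 5912 genes were higher. When the plasma cells that held 3 or more macrophage markers were also left out, HFHF-old replicate 1 fell below 5 cells and dropped out. Then 0 of 8 macrophage genes were higher and 7 lower, and over all genes 600 were higher and 653 lower. B cells were not limited in this way, so the limit itself lowers macrophage genes in plasma cells against B cells. Without likely doublets, old replicate 1 and HFHF-old replicate 1 remained, and 7 of 9 were higher, where 559 of all 4064 genes were. The endocrine genes Ppy (1.76) and Pyy (2.09) were also called higher, but their CPM was higher in plasma cells in old replicate 2 only and lower in the other 3 rats. Without old replicate 2, Ppy was at 0.68 and not called (edgeR adjusted p = 0.169).

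**Figure D5:**
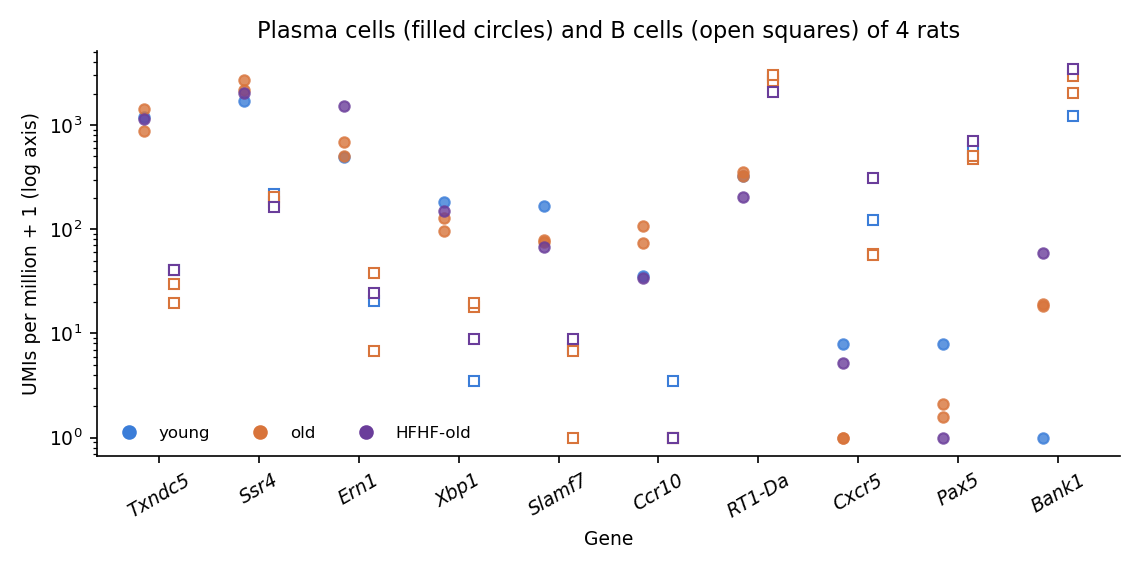
UMIs per 1000000, with 1 added, on a log axis for 10 genes in plasma cells (filled circles) and B cells (open squares) of the 4 rats, coloured by group, with at least 10 cells of each class. Txndc5, Ern1 and Xbp1 lie higher in plasma cells in all 4 rats and Pax5 lies lower in all 4.

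Acinar cells, the other secretory cells of the suspension, were used to set apart what a secretory cell shares. They were barcodes with at least 30% of UMIs in the 7 enzyme genes. Of 7594 genes tested in the same 4 rats, 941 were higher in plasma cells (12.4%) and 1182 lower (15.6%). On total UMIs the median log2 fold change was 1.98 in place of 0.04 and the split became 5949 higher and 214 lower, or 96.5% higher among those called in place of 44.3%, so directions against acinar cells hold relative to the bulk of genes only.

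ER translocation genes, 16 of 21 of which were higher against B cells, had 2 of 21 higher and 1 lower against acinar cells (median -0.24). N-glycosylation had 4 of 23 higher and 3 lower (17.4 and 13.0%), and ER to Golgi transport 5 of 27 higher and 5 lower (18.5% each). These shares lay near those of all genes tested against acinar cells, 12.4% higher and 15.6% lower. ER folding was mixed, with 12 of 30 higher and 3 lower: Txndc5 (4.08), Pdia4 (2.81), Sdf2l1 (2.68) and Hsp90b1 (2.21) were higher in plasma cells, and Prdx4 (-4.37), P4hb (-3.68) and Ero1b (-2.83) lower. Ern1 differed by 4.67 and Atf6 by 2.67, whereas Xbp1 was at -0.40 and not called. Plasma cell genes were higher in 15 of 20 and lower in 1, with Eaf2 (8.67), Pou2af1 (6.98) and Irf4 (5.07) among the higher. Oxidative stress genes were lower in 12 of 21 and higher in 0.

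Within plasma cells, HFHF-old and old rats could be compared with at least 5 cells a rat, 4 rats of these groups and young replicate 1 sharing 1 estimate of the spread. At the minimum of 10 cells no pair of groups had 2 rats each, and young rats could not be compared, since 1 of them had plasma cells. Of 3920 genes tested with edgeR's quasi-likelihood test, 0 were called (0%), and 313 had an unadjusted p under 0.05. DESeq2 called 13, 7 higher and 6 lower in the HFHF-old rats. In simulated counts of this comparison 0% of 2-fold and 4.12% of 4-fold changes were recovered, so a change of that size was mostly not detectable here.

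No gene of the secretory pathway or the plasma cell list was called. Xbp1 had a log2 fold change of -0.38 ± 0.39 (edgeR adjusted p = 0.730), Txndc5 of -0.53 ± 0.42 (adjusted p = 0.674) and Hspa5 of 0.08 (adjusted p = 0.95). The median over 21 ER translocation genes was -0.60 and that over 28 ER folding genes -0.21, against 0.10 over all genes. The 8 tested endocrine genes had a median of -5.50 and the 10 macrophage genes 2.36, and these transcripts were highest in old replicate 2 and HFHF-old replicate 1 respectively.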

How the data were processed

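Single-cell 3' RNA libraries (10x Genomics) of 6 rats, 2 in each of 3 groups, were read from the deposited matrices, which hold raw UMI counts per gene and barcode that the authors made with Cell Ranger (5.0.0 per the file headers) against Rnor_6.0, as given in the submitters' processing notes. No further normalization had been applied. The libraries held 77387928 to 166875258 UMIs.

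Barcodes with at least 200 genes and at most 25% mitochondrial UMIs were kept. Plasma cells, B cells and acinar cells were gated on their transcripts (1 item is not reported here), and the members and gene lists were chosen with earlier results of these data known. Sums of UMIs for each class in a rat were tested with edgeR 4.0.16 (quasi-likelihood, TMM, filterByExpr, rat as a covariate, at least 10 cells a rat, R 4.3.3), with Benjamini-Hochberg adjustment, at an adjusted p under 0.05 and a fold over 1.5. Shares were compared over rats with two-sided exact permutation tests over all arrangements, and exact binomial intervals came from scipy 1.17.1. DESeq2 1.42.0 was an alternative for the fits. The planned fit between groups had no pair of groups with 2 rats at 10 cells, so a minimum of 5 cells was used. Doublet scores (scrublet in scanpy 1.11.5) marked 0.8% of barcodes for each 1000 kept in a library; marked cells were kept in the main values and left out in an alternative. Each library is a separate rat.

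Named genes were the 5 markers, up to 4 genes of each list with the largest called change, the 10 genes highest by CPM in plasma cells, the 10 largest rises and 10 largest falls against B cells with 1 direction in every rat, immunoglobulin genes by symbol, the dominant loci and markers of other cell types, and fewer were printed. Others named, among them those of the promoter sites and the exceptions in a list, were chosen after their values were seen. The fit was tested on simulated data of 4978 genes for plasma cells against B cells. It recovered 38% of 2-fold and 99% of 4-fold changes, with 1 false call. The changes were placed only in genes above a minimum of expected UMIs in the smallest sum, and the classes otherwise shared the same profile. These rates do not cover genes of lower counts. Genes with near-identical copies, which the clone-named loci and MHC genes may be, are uncertain in such counts. Promoter sequences are RefSeq's on GRCr8, a build other than that of the counts, and no coordinates were transferred.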

Additional observations from a re-analysis of the deposited data

How the results depend on the processing

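Added after seeing the data were library size alone, the fit without genes over 1% of UMIs, the limits on macrophage markers and hormone genes, the 10% minimum in the dominant loci and the count with no limit on Ms4a1 and Cd3. So were 4 kinds of fit that also lowered the minimum to 5 cells (4 markers, no likely doublets, hormone genes, macrophage markers) and thus changed 2 choices. The other settings changed 1 choice at a time, but some thereby also lowered the number of rats in a fit. At 4 markers only the 2 old rats kept 10 cells of each class, and without likely doublets 2 rats did against B cells. Under every alternative run for the shares and the ratios, both old rats lay above the other 4 and no direction of the means reversed. For HFHF-old against young the exact permutation p ranged from 0.333 to 1, and with no limit on Ms4a1 and Cd3 both HFHF-old rats lay below young replicate 1 (p = 1). The log2 ratio of shares ranged from 3.56 to 5.11 for old against young, from -3.79 to -2.77 for HFHF-old against old and from 0.52 to 2.11 for HFHF-old against young, with p from 0.0667 to 0.267 over the 3 groups. For the ratio of plasma cells to B cells the ranges were 4.67 to 7.78, -6.18 to -3.62 and 0.0046 (at 2 markers) to 2.58. With the replicate number as a block these differences stayed at 4.59, -3.07 and 1.52, and at 6.5, -4.90 and 1.61 for the ratio, each at the smallest p of the exact permutation test, 0.5. The number marks different rats, and plasma cells of same-numbered old and HFHF-old rats did not deviate together (r = -0.00487 over 3920 genes). With the replicate block, 0 genes were higher and 0 lower in HFHF-old plasma cells.

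Against B cells, library size alone gave 228 genes higher and 2897 lower, and leaving out 1 rat gave 484 to 679 higher and 322 to 488 lower, with 322 without old replicate 1. Against acinar cells, library size alone gave 5949 higher and 214 lower, and 4 markers gave 554 and 640. Without plasma cells of 3 or more macrophage markers, at 5 cells a rat, 738 were lower. For HFHF-old against old, DESeq2 gave 7 higher and 6 lower, no filter on low counts 121 and 86, cells under 3 macrophage markers, with 1 HFHF-old rat left, 21 and 9, and leaving out 1 rat 0 to 26 higher and 0 to 19 lower, with 26 without HFHF-old replicate 2 and 19 without old replicate 1. The cause of these shifts was not tested, other than that fewer cells or rats entered some of them.

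Of the named genes, those that reversed against B cells under library size alone were Ndufa4 (-0.017), Ndufb8 (-0.063), Cox5a (-0.16), Prdx1 (-0.00597), Gpx4 (-0.092) and AC134224.3 (-0.059). Cd163 (-3.13) and Csf1r (-2.97) reversed in the fit at 5 cells without plasma cells of 3 or more macrophage markers. In that fit HFHF-old replicate 2 stood in place of HFHF-old replicate 1. B cells were not limited in it, so the limit itself lowers these 2 genes in plasma cells. Csf1r (-0.95) and Ppy (-0.037) reversed at 4 markers, where only the 2 old rats remained. Against acinar cells under library size alone Tram1 (0.49), Tmed3 (0.25), Slc38a2 (1.10), Atp5f1b (0.56), Cox7c (0.82), Ndufv1 (0.87), Cox4i1 (0.94), Cat (0.017) and Atf3 (0.33) reversed. Mki67 and Stmn1 lost their calls against B cells in 10 settings each. Depth limits the smaller libraries of cells: 9 to 13 plasma cells stand behind the values of young replicate 1 and both HFHF-old rats. The B cells of old replicate 2 were 11, with 53971 UMIs in sum. A B cell value of 18.5 CPM in that rat, as for Txndc5 and Xbp1, is the lowest possible above 0.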
